A study of Arabidopsis thaliana with 6 samples.

Results

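The class IV chitinase genes of Arabidopsis thaliana lie mostly in 1 tandem array on chromosome 2, and in seedlings grown on scutellarin some of their transcripts were higher and 1 was lower than in mock. The genes described here are 7 loci: the 6 consecutive protein-coding genes CHI (AT2G43570), AT2G43580, AT2G43590, AT2G43600, AT2G43610 and AT2G43620, and the separate locus EP3 (AT3G54420). A probe set, the group of short probes with which the array reads 1 transcript, was taken as a member where its single annotated gene was 1 of these loci. This gave 6 probe sets, 1 for each gene of the tandem array, of 22746 on the array, and EP3 was not analysed here. The loci were chosen by gene family, with AT2G43610 put first, when the log2 changes between scutellarin and mock were already known, and so count as selected on that contrast. Those changes are therefore given below as a description, with no p-value, and support nothing further.

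Chitinases cut chitin, the polymer of N-acetylglucosamine in fungal cell walls and insect cuticles, which plants do not make. Class IV enzymes carry a catalytic domain of glycoside hydrolase family 19 (GH19) and usually a small hevein-type domain that binds chitin, and they are secreted to the apoplast. They are best known as pathogenesis-related proteins, and members have also been tied to development, as with the carrot enzyme EP3 that rescues somatic embryos.

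The seedlings were of the Columbia ecotype and 10 days old. The mock group (3 arrays) grew on filter paper with 1% DMSO, and the scutellarin group (3 arrays) grew on 1% DMSO with 100 µM scutellarin, a flavone glucuronide. The treatment lasted 10 days from sowing, and every sample pooled 100 whole seedlings from an independent experiment. RNA from all organs was mixed, so fewer cells of a type and less RNA per cell cannot be told apart. Values are MAS5 intensities of the Affymetrix ATH1 array on a linear scale with a floor of 1, and the median intensity per array lay between 144.8 and 162.3. An intensity is not compared between genes, because probe sets differ in how brightly they bind.

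Among the 4 tandem genes in the fit, AT2G43610 had the largest difference. The mock arrays read 262, 357 and 331, and the scutellarin arrays 2854, 3398 and 2746, each in the order of replicates 1 to 3 that is kept below. The groups lay far apart: the lowest scutellarin array was 7.69 times the highest mock array, while arrays of the same group differed by at most 1.36 times. The means were 317 ± 49.2 in mock and 2999 ± 349 with scutellarin (SD, n = 3), a ratio of 9.47. On the log2 scale the gene rose by 3.25 ± 0.15 (SE of the fit over all probe sets). Each of the 3 scutellarin arrays stood between 3.13 and 3.44 log2 units above the mock mean. Among the 8662 kept probe sets that name 1 gene, this was the 40th largest rise.

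CHI, the first gene of the tandem array, went the opposite way. Its intensity was 816, 779 and 792 in the mock arrays, and 193, 278 and 390 in the scutellarin arrays. All 3 mock arrays were above all 3 scutellarin arrays, with the lowest mock array at 2.00 times the highest scutellarin array. The means were 795 ± 19.0 and 287 ± 98.7 (SD, n = 3), and the log2 change was -1.53 ± 0.22 (SE). The mock arrays were tight, with a highest-to-lowest ratio of 1.05, and the scutellarin arrays were spread over a ratio of 2.02. CHI stood 40th among the falls of the 8662 probe sets.

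AT2G43620, the last gene of the tandem array, rose by less than AT2G43610. It was read at 520, 518 and 556 in mock, and at 1262, 790 and 922 with scutellarin. The groups did not overlap, and the lowest scutellarin array was 1.42 times the highest mock array. The means were 531 ± 21.4 and 991 ± 243 (SD, n = 3), a log2 change of 0.87 ± 0.17 (SE). Scutellarin replicate 1 had the highest AT2G43620 and the lowest CHI of the treated arrays. With 1 array per experiment, a change that differs between experiments cannot be told apart from spread between arrays. Relative to the mock mean, the 3 treated arrays gave log2 differences of 1.25, 0.57 and 0.80 for AT2G43620, and of -2.04, -1.52 and -1.03 for CHI.

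AT2G43590 gave no difference beyond the spread between arrays. It was read at 641, 632 and 880 in mock and at 551, 610 and 836 with scutellarin. The groups overlapped, with the third replicate the highest in each. The means were 718 ± 141 and 666 ± 151 (SD, n = 3), and the log2 change was -0.11 ± 0.19 (SE).

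The remaining pair, AT2G43580 and AT2G43600, fell below the filter that left out the lowest 30% of probe sets by mean log2 intensity, so neither entered the fit. AT2G43600 was read at 13.9, 3.03 and 4.98 in mock, and at 96.3, 166 and 136 with scutellarin. It was near the floor in mock and above it in every treated array, and the lowest treated array was 6.91 times the highest mock array. Its log2 difference was 4.45 ± 0.68 (SE) in a fit with no filter and 2.05 with 32 added to every intensity, so its direction is plain in these arrays while the size of the fold is not. AT2G43580 was read at 2.32, 2.54 and 21.2 in mock and at 16.3, 1.80 and 11.7 with scutellarin. These values are close to the floor in both groups and in no order, and no difference was detectable at this signal. Whether so dim a probe set is above background cannot be said without detection calls, which were not used.

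**Figure D1:**
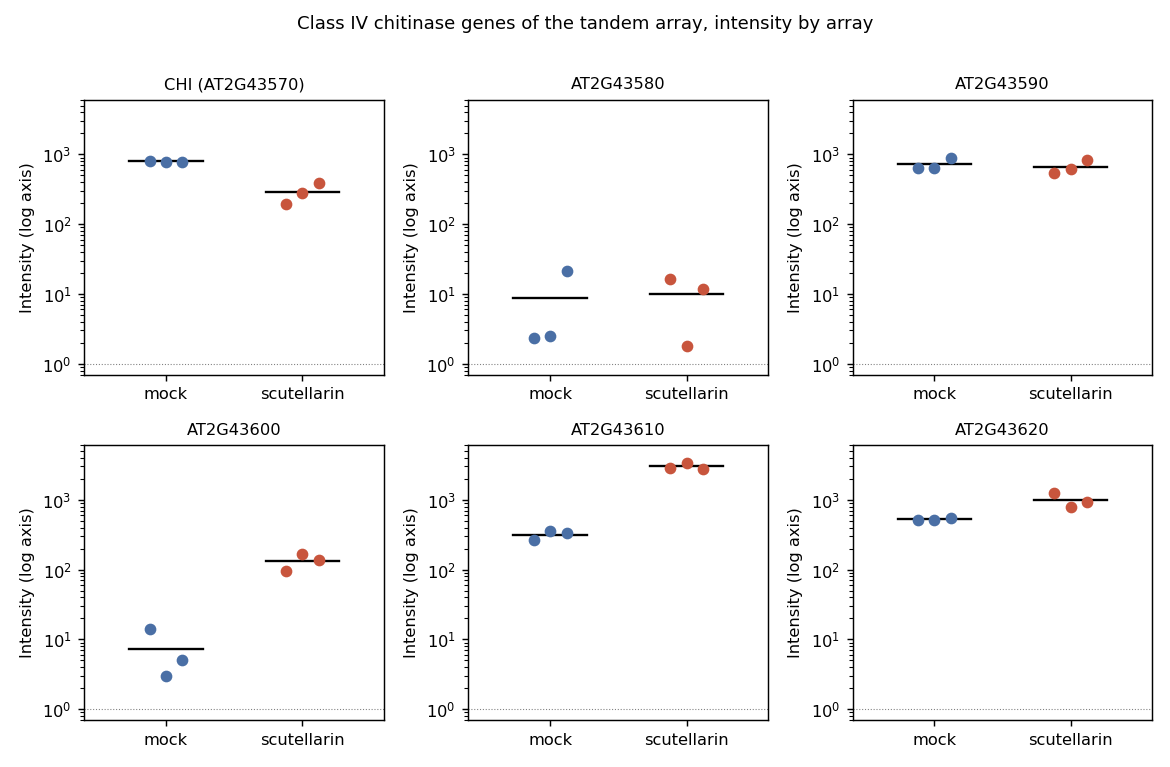
Intensity (log axis) of the 6 class IV chitinase genes of the tandem array, 1 point per array and 3 arrays per group, with the group mean as a bar and the floor of 1 as a dotted line. AT2G43600, AT2G43610 and AT2G43620 are higher in all scutellarin arrays, CHI is lower in all of them, and the groups overlap for AT2G43580 and AT2G43590.

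Of the 4 members that passed the filter, AT2G43610 and AT2G43620 rose, CHI fell and AT2G43590 did not pass the threshold of the fit, an adjusted p under 0.05 in limma. Over all 15923 kept probe sets, 19.4% passed it, 10.3% as rises and 9.11% as falls. The groups did not overlap at 3 of these 4 members and at 37.1% of all kept probe sets. The median log2 change of the 4 members was 0.38, and that of all kept probe sets was -0.04. These counts restate the contrast with which the loci were chosen. None of the 6 probe sets carries a suffix that marks possible cross-hybridisation. Members of a tandem array can be alike in sequence, and no probe sequence was used here to compare them.

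In chromosome order from CHI to AT2G43620, the log2 changes were -1.53, 0.49, -0.11, 4.45, 3.25 and 0.87, where 0.49 ± 1.23 and 4.45 are the no-filter values of AT2G43580 and AT2G43600. With 32 added to every intensity, those 2 genes, both near the floor in mock, changed by 0.06 and 2.05, and AT2G43610 by 3.12, so AT2G43600 and AT2G43610 change places in the order of size.

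The genes around the array were then examined, since they had no part in the choice of the loci. Of the 10 protein-coding genes on either side in RefSeq order, 10 of the 20 had a probe set naming 1 gene, and 8 passed the filter. In limma, adjusted over all kept probe sets, 1 of these rose, 1 fell and the other 6 missed the threshold, so 2 of 8 were called where 19.4% of all kept probe sets were. Their median log2 change was -0.13. AT2G43535 was read at 128, 99.1 and 105 in mock and at 271, 261 and 278 with scutellarin. It rose by log2 1.29 ± 0.20 (SE, adjusted p = 0.000773, limma). AT2G43530, the gene beside it, was read at 267, 361 and 306 in mock and at 136, 174 and 125 with scutellarin, and fell by 1.10 on the log2 scale (SE 0.20, adjusted p = 0.00269, limma). Both lie before CHI, with several genes between them and the array. The genes that directly flank the array did not pass: AT2G43560 changed by -0.34 ± 0.17 (adjusted p = 0.195, limma) and AT2G43630 by -0.32 ± 0.14 (adjusted p = 0.129, limma). The groups overlapped at AT2G43560. At AT2G43630 all mock arrays were above all scutellarin arrays, and the groups were separate at 37.1% of all kept probe sets.

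**Figure D2:**
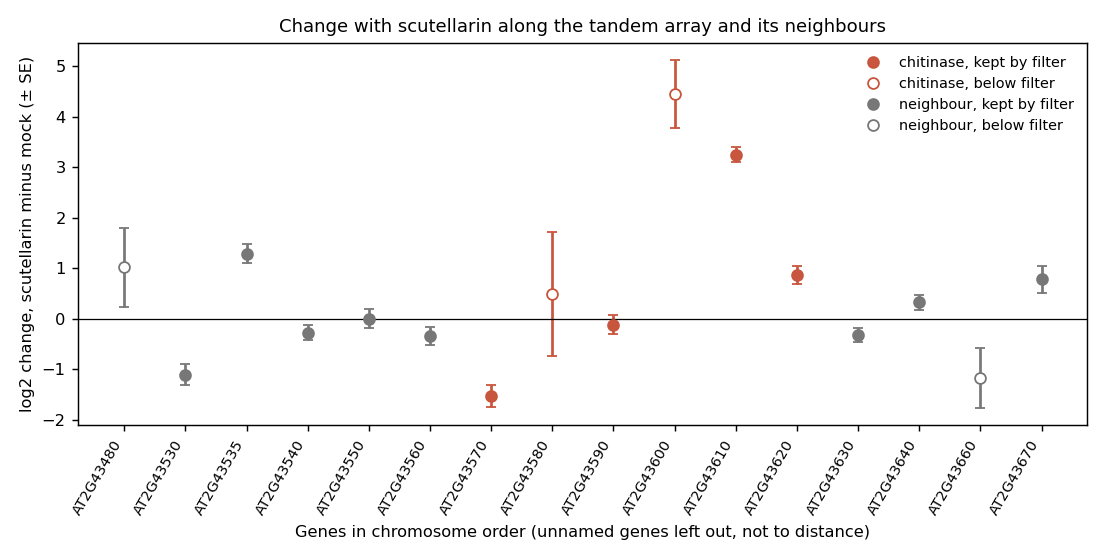
Log2 change (scutellarin minus mock, error bars SE) of the chitinase genes and of their named neighbours, in chromosome order and not to distance; open symbols are genes below the filter, with values from the fit without it. CHI lies at -1.53 and AT2G43610 at 3.25, the value of 4.45 at AT2G43600 falls to 2.05 with 32 added, and the flanking genes AT2G43560 and AT2G43630 lie at -0.34 and -0.32.

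Chitinases outside the 7 loci give a second setting for these values. The lists held 7 further genes of family GH19, whose class was not checked here and may include class IV. They also held 10 class III and class V genes of family GH18, whose fold is unrelated. Of these 17 genes, 9 had a named probe set and 7 passed the filter. Among the 7, 2 rose and 0 fell, where 10.3% of all kept probe sets rose and 9.11% fell. Both rises were in the GH19 list, and the median log2 change of the 7 was 0.45. AT1G56680, which rose, and AT4G19720, which did not pass, were kept only through their scutellarin arrays. The count and the median are read with that limit, and the count is no result beside the share of all kept probe sets.

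AT1G56680, a GH19 gene, was read at 7.50, 60.6 and 20.6 in mock and at 129, 159 and 203 with scutellarin. All treated arrays were higher, and it rose by log2 2.93 ± 0.60 (SE, adjusted p = 0.00535, limma). The mock values are close to the floor and uneven, and with 32 added before log2 the change was 1.74. Its mean log2 intensity in mock alone was 4.40, an intensity below 34.8, the lowest geometric mean that the filter kept. The same holds for AT4G19720 below, with 3.92. Both entered the fit only through their scutellarin arrays, and their p-values are read with that limit. AT4G01700, another GH19 gene, was read at 445, 551 and 455 in mock and at 942, 686 and 725 with scutellarin. The groups were separate, and it rose by 0.69 ± 0.16 (SE, adjusted p = 0.0118, limma). AT1G02360, a GH19 gene, was read at 983, 1299 and 1042 in mock and at 2206, 1045 and 1468 with scutellarin. Only scutellarin replicate 2 overlapped the mock arrays, and the log2 change of 0.45 ± 0.23 did not pass. The GH19 gene AT3G47540 had overlapping groups, with a log2 change of -0.19 ± 0.19.

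In the GH18 list none of the 3 kept genes passed. ChiC (AT4G19810), a class V chitinase, had overlapping groups and means of 627 ± 46.5 in mock and 610 ± 183 with scutellarin (SD, n = 3). AT4G19820 changed by -0.40 ± 0.28. AT4G19720 had the largest difference of that list, from 2.22, 27.2 and 57.6 in mock to 74.8, 120 and 83.6 with scutellarin. Its groups were separate but its mock arrays were widely spread, and its log2 change of 2.59 ± 0.92 did not pass (adjusted p = 0.0704, limma). The change was 1.20 without mock replicate 1 and 3.01 without mock replicate 2, and without any of the other 4 arrays the gene was below the filter. With 32 added before log2 it passed, at 1.12 (adjusted p = 0.0213, limma). The remaining pair was below the filter. AT4G19740 was read at 3.75, 2.24 and 4.98 in mock and at 21.8, 13.9 and 25.1 with scutellarin, so its groups were separate but near the floor, with a no-filter log2 difference of 2.50 ± 0.85. AT4G19730 had overlapping groups, with no array above 22.6. No test was made of whether the GH19 and GH18 lists differ.

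**Figure D3:**
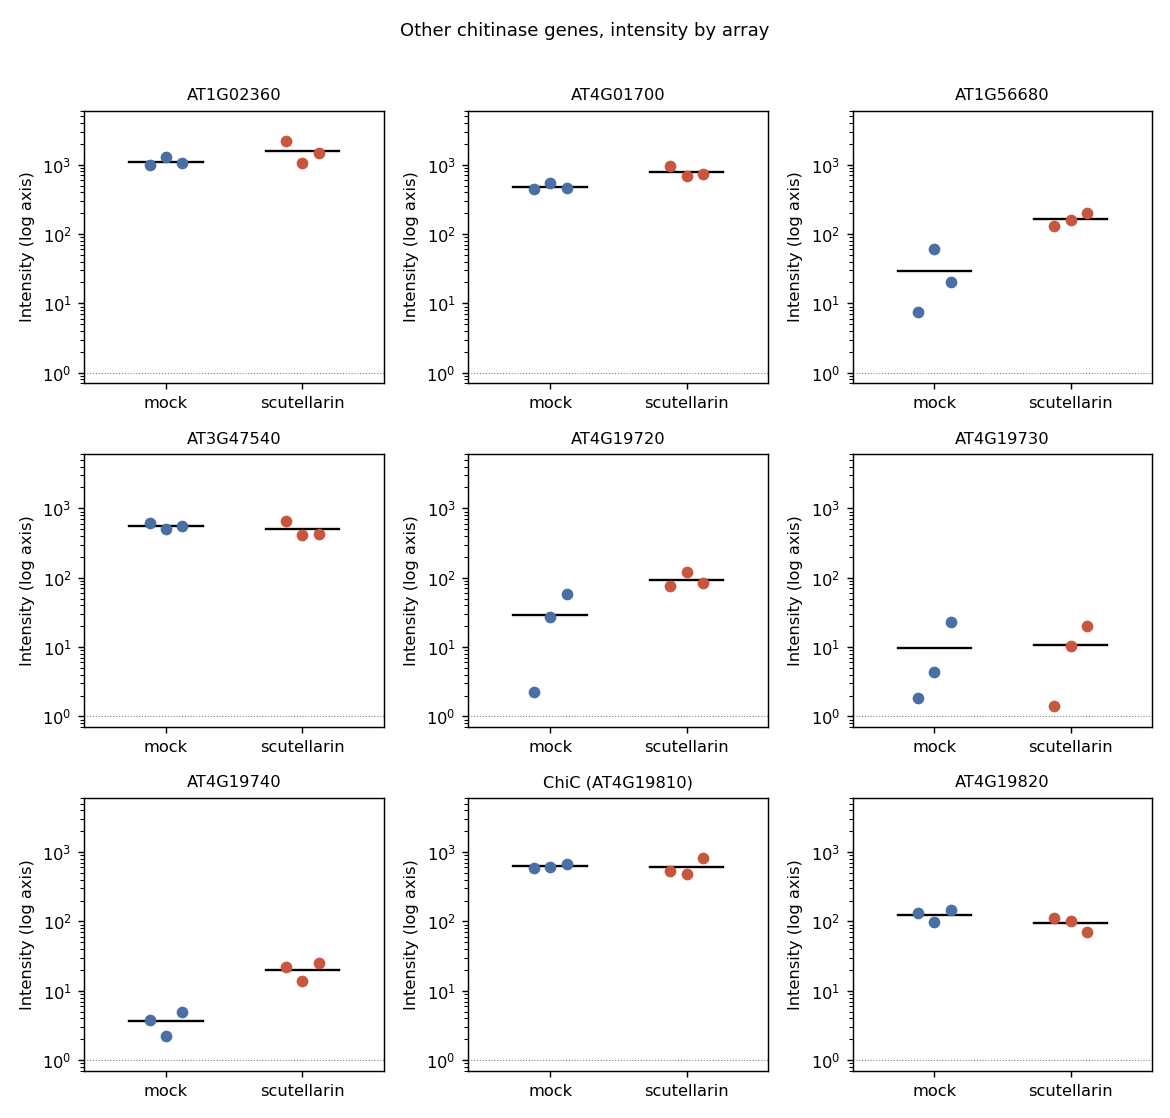
Intensity (log axis) of the 9 measured chitinase genes outside the tandem array and EP3, 1 point per array and 3 arrays per group, with the group mean as a bar and the floor of 1 as a dotted line. AT4G01700 and AT1G56680 are higher in all scutellarin arrays and passed the test, while ChiC and AT3G47540 overlap between the groups. AT1G56680 was kept by the filter only through its scutellarin arrays.

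Because chitinases are read as defence genes, 5 lists of defence genes were set beside them: chitin perception and early signalling, genes that respond to chitin and other microbial patterns, pathogenesis-related genes, and the ethylene and jasmonate and the salicylate regulators. Few of them were named: 8 of 49 had a probe set naming 1 gene, and 5 were kept. Of these 5, 1 rose, 1 fell and 3 did not pass, where 19.4% of all kept probe sets passed. The lists are thus too thin to describe a defence response. PUB23 (AT2G35930), a ubiquitin ligase gene induced by microbial patterns, was read at 203, 229 and 138 in mock and at 355, 302 and 398 with scutellarin. It rose by 0.91 ± 0.22 (SE, adjusted p = 0.0117, limma), a call lost without scutellarin replicate 3 (adjusted p = 0.0527). EIN3 (AT3G20770), the transcription factor of ethylene signalling, was lower in all treated arrays and fell by 0.44 on the log2 scale (SE 0.12, adjusted p = 0.0226, limma). That call did not hold when mock replicate 2, mock replicate 3, scutellarin replicate 1 or scutellarin replicate 3 was left out (adjusted p = 0.0513 to 0.0935). BIK1 (AT2G39660), a receptor-like cytoplasmic kinase of pattern signalling, had a log2 change of -0.00151 ± 0.16. The defensin gene PDF1.2 (AT5G44420), a marker of the jasmonate and ethylene branch, had overlapping groups and a change of 0.59 ± 0.44, which was 0.16 without mock replicate 3 and 0.85 without mock replicate 2. WRKY53 (AT4G23810) changed by -0.07 without passing. No salicylate regulator was named, which does not mean that the array has no probe set for it.

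Tissue marker genes also differed between the groups. The summed intensity of the 2 measured root hair markers of 6 listed, EXPA7 and EXPA18, was 16.5 to 37.9 in mock and 619 to 864 with scutellarin. The sum of the 4 measured of 9 other root markers, in which the bright PYK10 weighs most, was 8402 to 9807 in mock and 12971 to 15580 with scutellarin, though 2 of the 4 fell and their median log2 change was -0.09. The sum of the 5 measured of 11 green shoot markers was 82458 to 92049 in mock and 58176 to 68713 with scutellarin, and all 5 fell. Markers of root and of green shoot were well above the floor in both groups, while the root hair markers were near it in mock. The part of these shifts in the chitinase values was not tested.

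The probe sets most like AT2G43610 over the 6 arrays were found by Pearson's r of log2 intensity, among 8658 kept probe sets that name 1 gene and are no member. The 5 highest were AT5G24230 (r = 0.999), the glutathione transferase gene GSTU25 (AT1G17180, r = 0.998), AT2G48130 (r = 0.997), the farnesol dehydrogenase gene FLDH (AT4G33360, r = 0.997) and the subtilase gene SBT4.12 (AT5G59090, r = 0.997). These r describe 6 points that fall into the 2 treatment groups, and 351 of the 8658 probe sets had an r over 0.95, so a high r here mostly restates the difference between the groups. GSTU25 was read at 355, 400 and 410 in mock and at 2657, 3123 and 2912 with scutellarin. Its log2 change of 2.90 ± 0.13 was the nearest of the 5 to the 3.25 of AT2G43610, and FLDH had the smallest, 1.25 ± 0.14. Within the tandem array, AT2G43600 had an r of 0.93 with AT2G43610 and AT2G43620 an r of 0.89. CHI had -0.93, AT2G43590 -0.24 and AT2G43580 0.15. Deviations from the group means leave the difference between the groups out. Over the same 6 arrays their r with AT2G43610 was -0.64 for AT2G43600 and -0.33 for AT2G43620. It was -0.14 for CHI, -0.06 for AT2G43590 and -0.19 for AT2G43580. The values of AT2G43600 and AT2G43580 rest in part on readings near the floor. For the 5 outside genes it was 0.64 to 0.90, but these were picked by their r over the same arrays.

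**Figure D4:**
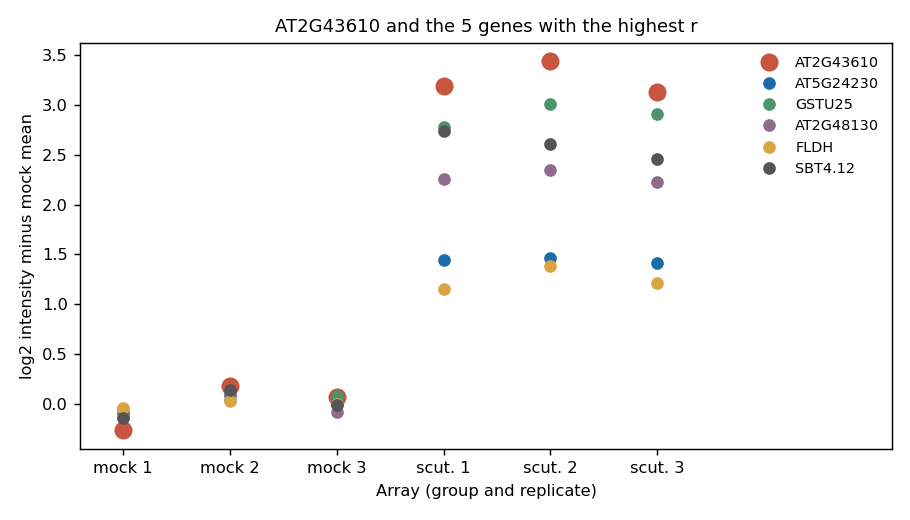
Log2 intensity minus the mock mean of AT2G43610 (large symbols) and of the 5 genes with the highest r, for each of the 6 arrays. All 6 genes lie near 0 in the mock arrays, and in the scutellarin arrays AT2G43610 lies highest, at 3.13 to 3.44.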

How the data were processed

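The authors deposited array intensities, 1 per probe set and array, on a linear scale. MAS5 is the tool named in the submitters' processing notes, with its version not given in the sources used. The mean without 2% of values at each end was 493.9 to 495.1 on all 6 arrays. Genes came from a platform annotation table matched by gene ID to RefSeq (TAIR10.1), with 13436 probe sets naming 1 matched gene. Coordinates are not printed, since no build is named for the array.

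Intensities were log2-transformed. The lowest 30% by mean log2 intensity were left out (15923 kept), and limma 3.58.1 under R 4.3.3 fitted the difference scutellarin minus mock (lmFit, eBayes with a variance trend, two-sided, Benjamini-Hochberg), after it was tested on simulated data. Of several probe sets of a gene, the one with the highest mean was read. With 3 arrays per group the number of arrays limits the precision. The p-values reflect the spread between experiments, with the variance of each probe set drawn toward a trend over all kept probe sets.

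Members and lists were chosen with earlier results of these data known. Named were all members, per list up to 3 passing genes (the largest, or the largest change if none passed), up to 5 passing neighbours among the 10 on either side, and the 5 genes of highest r. The other genes of the chitinase lists, WRKY53, the flanking genes and the markers were named after their values were seen. Other settings were 32 added to intensities, quantile or median scaling of the arrays, a 50% filter or none, a variance prior that was robust or had no trend, the replicate block, leaving out each array or probe sets open to cross-hybridisation, and, added after the data were seen, a filter on the linear mean. Figures were drawn with matplotlib 3.10.9.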

Additional observations from a re-analysis of the deposited data

How the results depend on the processing

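Each of the 4 kept members moved by less than its spread between arrays in all 16 alternatives. With all arrays the log2 change of AT2G43610 lay between 3.12 and 3.25, of CHI between -1.56 and -1.42, of AT2G43620 between 0.84 and 0.87 and of AT2G43590 between -0.15 and -0.10, and without 1 array they lay between 3.12 and 3.34, -1.78 and -1.27, 0.68 and 1.02, and -0.29 and 0.04. With no filter, or with the filter on the linear mean (chosen after seeing the data), AT2G43600 also entered the fit and 3 members rose. AT2G43600 also entered without mock replicate 2 or 3. Where a filter was used, it passed only through its scutellarin arrays, so its call supports nothing. Over all probe sets, 3094 changed and 1450 fell. With no variance trend 862 fell. Without 1 array 2035 to 2836 changed and 801 to 1450 fell (2035 and 801 without mock replicate 2, 933 without mock replicate 3, 940 without scutellarin replicate 3). Of the other chitinases 1 rose with the lowest 50% left out, since AT1G56680 and AT4G19720 were then not tested, and 2 to 3 rose without 1 array. The 3 rises were without scutellarin replicate 2, where AT4G19720 was below the filter, so it was not among them. AT4G19720 passed with 32 added (1.12, adjusted p = 0.0213). Rises in the defence lists were 0 to 1 without 1 array and falls 0 to 1, and 0 fell with no variance trend (EIN3, adjusted p = 0.0720). Among the neighbours 2 rose with 32 added. The cause of these shifts was not tested. The arrays share only a replicate number: deviations from the group means correlated at -0.04, -0.09 and 0.11 between arrays of equal number, and 1 of 6 arrays correlated best with its own number. With the replicate block 2923 probe sets changed, the member calls were as without it, and AT4G19720 passed (adjusted p = 0.0338). Low signal limits AT2G43580 and AT2G43600.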
